A study of Mus musculus with 4 samples.

Results

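The genes of the pentose phosphate pathway were followed in Hepa1-6, a mouse hepatocellular carcinoma line, with and without a knockout of Acvr2a. The rule of choice used gene symbols and no measured value, though earlier results of these data were known. Of the 54838 genes listed per file, 9 carry the symbols G6pdx, Pgls, Pgd, Rpia, Rpe, Tkt, Taldo1, Prps1 and Prps2, each on 1 row. The series holds 2 libraries of cells wild type for Acvr2a, called NC, and 2 of Acvr2a knockout cells, called KO. All were untreated as far as the labels say, and the design text calls the knockout cells subclones. Whether KO 1 and KO 2 are separate subclones, and how the gene was disrupted, is not given in the sources used here. Acvr2a encodes a type II receptor for activins, and lactate, glycolysis and regulatory T cells are the subjects named in the title of the series. Pairs of values below give library 1 of a group, then library 2.

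The pentose phosphate pathway branches from glycolysis at glucose 6-phosphate. Its oxidative branch yields NADPH, the reducing agent for lipid synthesis and antioxidant defence, and ends in ribulose 5-phosphate. Its non-oxidative branch converts pentose phosphates into one another and back into glycolytic sugars, reversibly, so it can also make ribose from glycolytic intermediates. PRPP synthetases then activate ribose 5-phosphate to PRPP, the starting point of nucleotide synthesis. The liver uses the pathway for fatty acid and sterol synthesis, and proliferating tumour cells draw on it for ribose as well.

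Library totals lay between 11597923 and 13910582 estimated counts, and 12510 genes passed the filter on low counts, all 9 pathway genes among them. Nothing in the labels says that the libraries of a group came from separate cultures, so p-values measure the spread between these libraries, which may be technical. No library was a repeat of another: replicate counts differed by more than sampling noise (chi-square over its degrees of freedom 6.88 within NC and 9.44 within KO, against about 1). The targeted gene had 81.0 and 108 counts in the NC libraries and 74.7 and 97.4 in the KO libraries. It did not separate the groups (log2 fold change -0.21, SE 0.20, edgeR adjusted p = 0.433), so KO and NC below are the libraries labelled so. A total over the gene does not show whether a deletion or frameshift is present, and Acvr2a overlaps exons of Orc4 on the opposite strand. The 8 hepatocyte and hepatoma markers summed to between 4292 and 4481 TPM (counts per effective length, scaled to a fixed sum) in NC and between 3005 and 3308 TPM in KO, with Apoe the highest. Apoe (3340.3 and 3207 TPM against 1960 and 1619) and Afp (167 and 160 against 74.1 and 72.9) were lower in KO. So were Hnf4a (95.1 and 91.6 against 54.5 and 47.5) and Fgb (7.18 and 7.64 against 4.73 and 4.44). Alb (498 and 473 against 624 and 713) and Trf (371 and 350.3 against 586 and 547) were on the other side. Apoa1 overlapped (2.35 and 2.24 against 4.33 and 1.76), and Ttr was at 0.1 TPM or less. Among the leukocyte markers, Cd3e had 0 counts, Ptprc was at 0.04 TPM or less, and the sum of 24.3 to 28.2 TPM in NC and 56.7 to 68.1 TPM in KO was nearly all Cd68. Dcn made up nearly all of the fibroblast sum of 1032 to 1094 TPM in NC and 1229 to 1234 TPM in KO, with Col3a1 at 0. The 4 cholangiocyte markers summed to 77.5 and 92.2 TPM in NC and 121 and 114 TPM in KO, although Sox9 among them had 25.9 and 32.2 TPM in NC and 23.7 and 18.5 in KO. The 4 endothelial markers summed to at most 0.48 TPM, with Tek and Cdh5 at 0. The part of these shifts in the results below was not tested. In bulk RNA, fewer cells expressing a gene and less RNA of it per cell cannot be told apart.

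Of the 9 pathway genes, 4 were lower in KO and 0 were higher at an adjusted p under 0.05 in edgeR's quasi-likelihood test. Across all 12510 genes the same rule called 37.9%, with 18.2% lower and 19.7% higher. The 4 were Rpia, Taldo1 and Tkt, which are 3 of the 4 non-oxidative genes, and Prps1, which is 1 of the 2 PRPP synthetase genes. None of the 3 oxidative genes passed: their log2 fold changes were 0.13, 0.11 and -0.031. The median log2 fold change was -0.29 for the non-oxidative genes, -0.22 for the PRPP synthetase genes and 0.11 for the oxidative genes, against -0.0037 over all genes tested. Whether the branches differ from each other was not tested across genes. The 4 calls are modest in size. By absolute log2 fold change Rpia stood at percentile 77.9 of all genes tested, Prps1 at 60.6, Taldo1 at 56.3 and Tkt at 47.9.

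**Figure D1:**
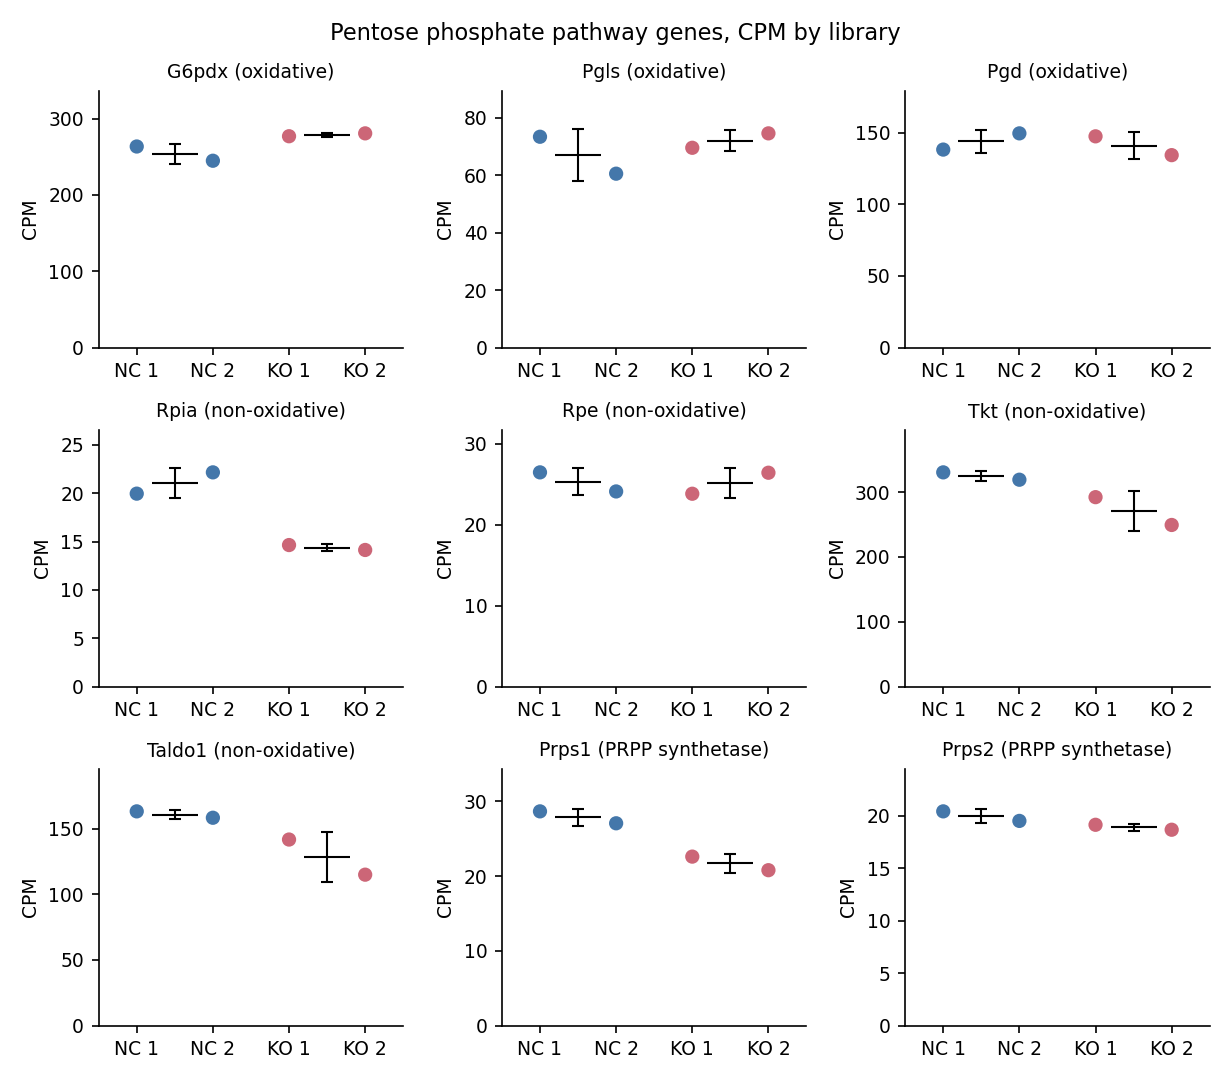
Scaled counts (CPM, vertical axis from 0) of each pathway gene in NC 1 and NC 2 (blue) and KO 1 and KO 2 (red), with the mean and SD of each pair in black. The KO libraries lie below the NC libraries for Rpia, Tkt, Taldo1, Prps1 and Prps2 and above them for G6pdx, and the groups overlap for Pgls, Pgd and Rpe.

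The oxidative branch was examined first, in CPM, which are counts scaled to a common library total. G6pdx (ENSMUSG00000031400.10, chromosome X, 74409483 to 74429194, minus strand of GRCm38) encodes glucose-6-phosphate dehydrogenase, the first and committed step. It was read at 264 and 245 CPM in NC and 277 and 281 in KO. Both KO libraries were above both NC libraries, but the difference did not pass (log2 fold change 0.13, SE 0.09, 95% interval -0.05 to 0.32, adjusted p = 0.251). G6pdx overlaps exons of Ikbkg on the opposite strand. Its near-identical retrogene G6pd2, which matches G6pdx-201 at 93.2% identity over 2332 bases, had 0 counts in all 4 libraries.

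Pgls (ENSMUSG00000031807.10, chromosome 8, 71592176 to 71601092, plus strand) encodes 6-phosphogluconolactonase, which opens the lactone made by the first enzyme. Its levels were 73.4 and 60.6 CPM in NC and 69.6 and 74.6 in KO. The NC libraries spanned nearly the whole range, and the log2 fold change was 0.11 (SE 0.10, interval -0.10 to 0.32, adjusted p = 0.426). One annotated Pgls transcript runs into the exons of Fam129c on the same strand, a gene with 63 counts over all libraries.

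Pgd (ENSMUSG00000028961.15, chromosome 4, 149149991 to 149166771, minus strand) encodes 6-phosphogluconate dehydrogenase, the second NADPH-yielding step. It was at 138 and 149 CPM in NC and 147 and 134 in KO. The groups overlapped, with a log2 fold change of -0.031 (SE 0.09, interval -0.22 to 0.16, adjusted p = 0.829). The 95% intervals of the 3 oxidative genes together ran between -0.22 and 0.32 on the log2 scale, which does not show that these levels were equal.

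In the non-oxidative branch, Rpia (ENSMUSG00000053604.5, chromosome 6, 70765720 to 70792232, minus strand) had the lowest p of the 9 genes. It encodes ribose-5-phosphate isomerase, which turns ribulose 5-phosphate into ribose 5-phosphate. NC held 227 and 307 of its counts against 193 and 191 for KO, or 19.97 and 22.2 CPM against 14.6 and 14.1 CPM. Both KO libraries lay well below both NC libraries. The mean of 21.1 ± 1.56 CPM in NC stood against 14.4 ± 0.36 in KO (SD, n = 2), which is 31.8% lower (log2 fold change -0.55, SE 0.14, edgeR adjusted p = 0.00248). It passed without any 1 of the 4 libraries (adjusted p from 0.00209 to 0.0365). In limma on TPM it did not pass, with adjusted p of 0.0611 on log2(TPM + 1), 0.0584 on log2(TPM + 0.1) and 0.151 with no filter on low TPM.

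Rpe (ENSMUSG00000026005.15, chromosome 1, 66700831 to 66719805, plus strand) encodes the epimerase that turns the same ribulose 5-phosphate into xylulose 5-phosphate. Its levels were 26.5 and 24.1 CPM in NC and 23.8 and 26.4 in KO. The groups overlapped, and the log2 fold change was -0.0068 (SE 0.13, interval -0.26 to 0.25, adjusted p = 0.97). The last 558 bases of Rpe-201 are shared with Kansl1l on the opposite strand, which had 194 counts in all. The isomerase and the epimerase compete for 1 substrate, so their ratio was taken within each library. The log2 ratio of Rpia to Rpe in TPM was 0.23 in NC 1 and 0.44 in NC 2 against -0.13 in KO 1 and -0.26 in KO 2. Rpia was thus the more abundant of the pair per length in both NC libraries and the less abundant in both KO libraries. With 2 libraries against 2, an exact two-sided permutation test cannot go below p = 0.333, so such ratios are given without one.

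Tkt (ENSMUSG00000021957.7, chromosome 14, 30548359 to 30574720, plus strand) encodes transketolase, which moves carbon pairs between sugar phosphates and links the branch to glycolysis. It was at 330.4 and 319 CPM in NC and 292 and 249 in KO. Both KO libraries were lower, KO 2 the more so. The means were 325 ± 8.02 CPM in NC and 271 ± 30.3 in KO (SD, n = 2), or 16.6% lower by edgeR (log2 fold change -0.26, SE 0.09, adjusted p = 0.0297). Without KO 2 it was -0.15 (adjusted p = 0.293). The call was also lost without NC 1 (adjusted p = 0.130), without NC 2 (0.0624), with scaling by library totals only (0.0727) and in the TPM fits (0.267 to 0.434).

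Taldo1 (ENSMUSG00000025503.5, chromosome 7, 141392199 to 141402968, plus strand) encodes transaldolase, the enzyme that works in sequence with transketolase. Its levels were 163 and 158 CPM in NC and 142 and 115 in KO. The order of the 4 libraries was the same as for Tkt. The NC mean of 161 ± 3.44 CPM compared with a KO mean of 128 ± 18.9 (SD, n = 2), or 20.2% lower by edgeR (log2 fold change -0.32, SE 0.10, adjusted p = 0.0111). Without KO 2 it was -0.18 (adjusted p = 0.204), and without NC 1 the adjusted p was 0.0508. In the TPM fits the adjusted p lay between 0.199 and 0.357. A processed pseudogene, Gm17823, matches Taldo1-201 at 94.8% identity over 1016 bases, and it had 0 counts in every library.

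Tkt and Taldo1 had the most similar profiles of all 36 pairs of pathway genes. The root mean square difference of their centred log2 CPM over the 4 libraries was 0.042, against up to 0.36 for the least similar pair, Pgls and Rpia. The log2 ratio of Tkt to Taldo1 in TPM was -0.12 and -0.15 in NC and -0.090 and -0.095 in KO. Prps1 lay close to both, at 0.061 from Tkt and 0.067 from Taldo1. For Rpia, the 3 closest genes outside the fixed lists, of 5398 above a floor of 5 in average log2 CPM, were Nup155 (0.0050), Zfp706 (0.0056) and Oaz1 (0.013). Nup155 encodes a nuclear pore protein and Oaz1 an inhibitor of ornithine decarboxylase. Nup155 had 85.0 and 94.5 CPM in NC and 62.9 and 60.2 in KO, and Oaz1 had 260.4 and 287 in NC and 191 and 188 in KO. With 4 libraries, many genes can take such a profile.

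**Figure D2:**
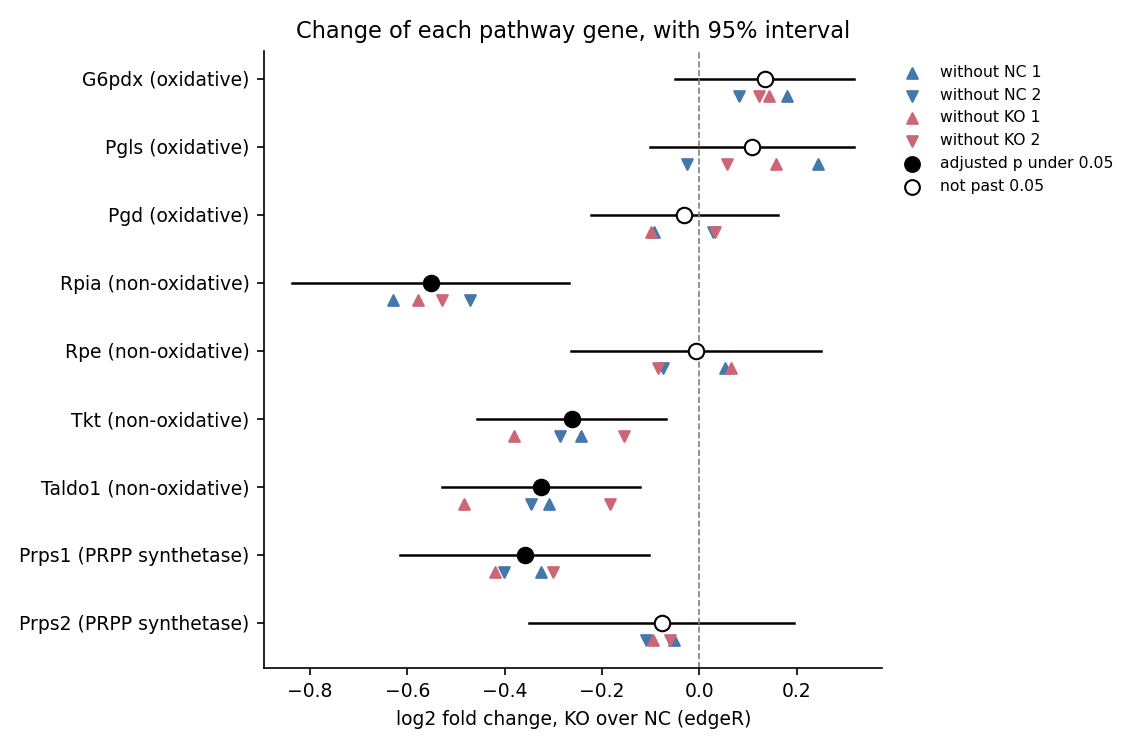
Log2 fold change of KO over NC for each pathway gene (circles, filled where the adjusted p was under 0.05) with its 95% interval, and the same value with 1 library left out (triangles). With any 1 library left out Rpia stays at -0.47 or lower, and Tkt and Taldo1 move closest to 0 without KO 2.

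The PRPP synthetases join the pathway to nucleotide synthesis. Prps1 (ENSMUSG00000031432.3, chromosome X, 140456613 to 140476140, plus strand) was at 28.7 and 27.1 CPM in NC and 22.6 and 20.8 in KO. Both KO libraries were lower, with means of 27.9 ± 1.13 and 21.7 ± 1.28 CPM (SD, n = 2). The log2 fold change was -0.36 (SE 0.12, adjusted p = 0.0241), or 22.1% lower. The call was lost with DESeq2 (adjusted p = 0.138), without NC 1 (0.105), without KO 2 (0.123) and in the TPM fits (0.278 to 0.421). Prps1 may share reads with Prps1l3 on another chromosome, which matches Prps1-201 at 93.2% identity over 1478 bases. Prps1l3 had 25.4 and 30.8 CPM in NC and 21.3 and 22.2 in KO, a range like that of Prps1, and was lower too (log2 fold change -0.37, SE 0.13, adjusted p = 0.0229). It also overlaps an exon of Mipol1 on the same strand. How the reads divide between them is uncertain. With both counted as 1 gene, an alternative added after the data had been seen, the log2 fold change was -0.37 (adjusted p = 0.00484).

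Prps2 (ENSMUSG00000025742.5, chromosome X, 167346322 to 167382749, minus strand), its paralog, was counted 232 and 270 times in NC, with 252 and 252 in KO, or 20.4 and 19.5 CPM and 19.1 and 18.7 CPM. The values lay within 2 CPM of each other, and the log2 fold change was -0.078 (SE 0.13, interval -0.35 to 0.20, adjusted p = 0.681). Its deposited TPM spread much wider, at 9.54 and 7.2 in NC and 10.3 and 5.99 in KO. The spread followed the effective length that the authors' quantification gave the gene, which was 2276 and 3022 bases in NC and 2158 and 3457 bases in KO. Prps2 has 2 annotated transcripts, the coding Prps2-201 of 3699 bases and the non-coding Prps2-202 of 599 bases. The deposited lengths correspond to a share of molecules for Prps2-202 of 38.2%, 14.0%, 41.8% and 0% in the same order, so this share differed as much within each group as between them. For the other 8 genes the highest effective length was at most 1.11 times the lowest, against 1.60 for Prps2. Its counts varied less between libraries than its TPM did.

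**Figure D3:**
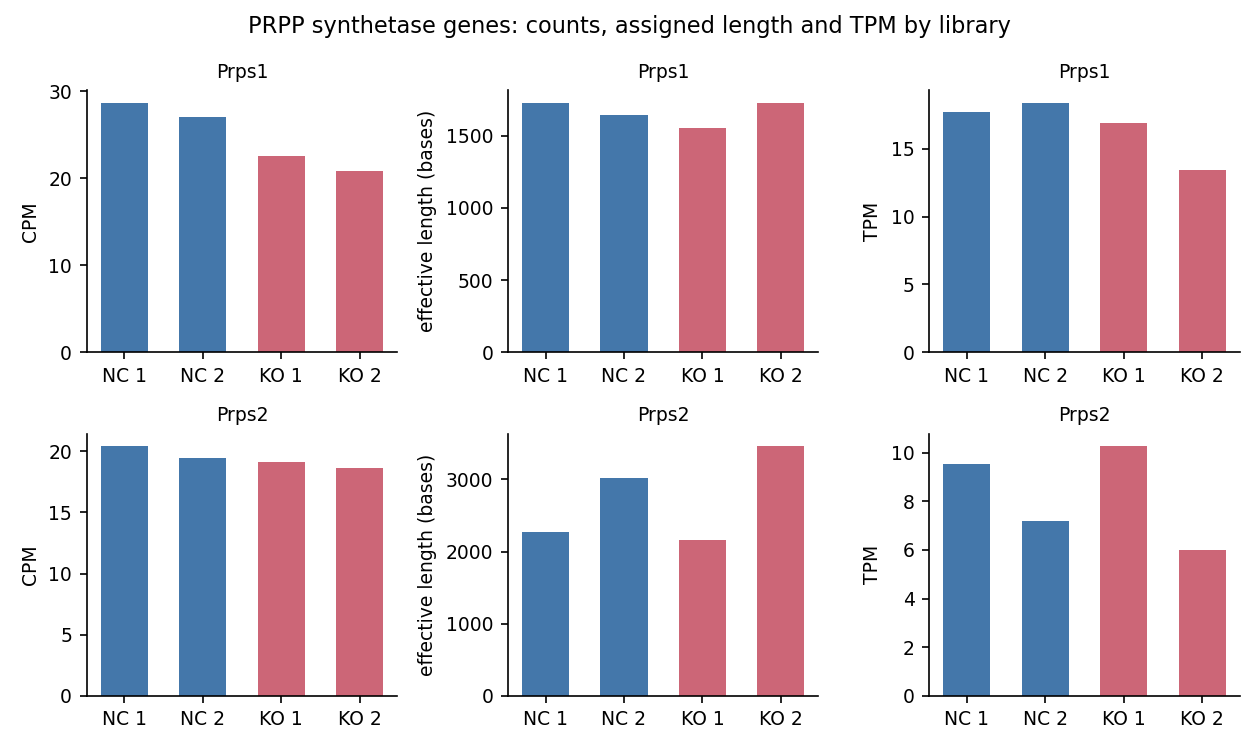
CPM, effective length in bases and TPM of Prps1 (top) and Prps2 (bottom) in each library, all axes from 0, NC in blue and KO in red. For Prps2 the CPM bars are level at 18.7 to 20.4 while the length varies from 2158 to 3457 bases and the TPM from 5.99 to 10.3 in the opposite order.

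Levels per length, as deposited TPM, place the 9 genes in an abundant and a scarce tier. Taldo1 averaged 166 TPM over the 4 libraries, Tkt 153, G6pdx 124, Pgls 111 and Pgd 81.3, all at percentile 88.5 of the genes tested or higher. Prps1 averaged 16.6 TPM, Rpia 12.7, Rpe 11.9 and Prps2 8.25. The gap between Pgd and Prps1 was clear in every library, since the lowest Pgd value was 75.2 and the highest Prps1 value 18.4. Within the tiers the ranges of Taldo1 and Tkt, Tkt and G6pdx, G6pdx and Pgls, Prps1 and Rpia, and Rpia and Rpe overlapped. Pgls lay above Pgd and Rpe above Prps2 in every library. Taldo1 was the highest in all 4 libraries. Tkt exceeded G6pdx in NC 1 (165 against 117), NC 2 (165 against 114) and KO 1 (158 against 134), and in KO 2 it did not (124 against 130.2).

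**Figure D4:**
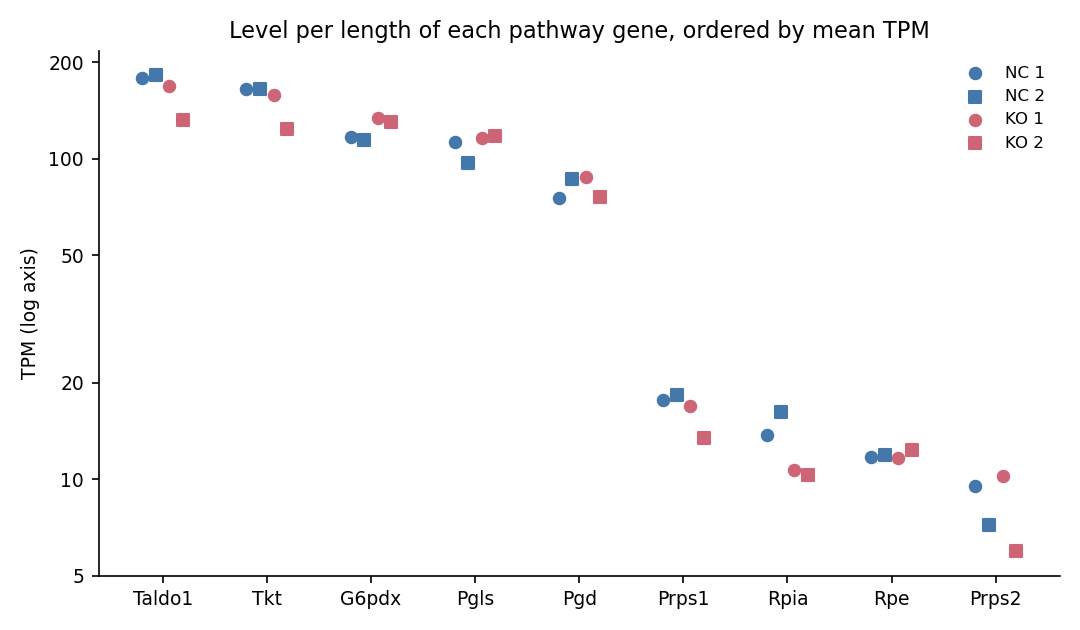
TPM (log axis) of each pathway gene in the 4 libraries, ordered by mean, with NC in blue, KO in red, library 1 as circles and library 2 as squares. Taldo1, Tkt, G6pdx, Pgls and Pgd lie between 75.2 and 183 TPM, and the other genes at 18.4 TPM or less.

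Summed TPM gives the balance of the branches in each library, as a description of values already shown. The oxidative genes summed to 305 and 298 in NC and 338 and 324 in KO. The non-oxidative genes summed to 369, 376, 349 and 278. The log2 ratio of the oxidative to the non-oxidative sum was -0.27 and -0.34 in NC and -0.047 and 0.22 in KO. Both KO libraries lay above both NC libraries, and the KO libraries differed from each other by more than the NC libraries did. The total over all 9 genes was 701 and 699 in NC and 714 and 622 in KO, which overlap. Over single genes, the CPM of the groups did not overlap for 6 of the 9, where 69.4% of all genes tested did not.

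The windows before the transcription start of the 4 genes that were lower are shown because these genes moved in 1 direction. RefSeq (GRCm38.p6) gave a promoter window of 300 bases, from 250 before the start to 50 after it, for all 9 genes. Printed 5′ to 3′ on the gene's strand are the bases before the RefSeq start, shortened for Rpia to those before its GENCODE start, at chr6:70792233-70792425 (minus) for Rpia, chr7:141391910-141392159 (plus) for Taldo1, chr14:30548881-30549130 (plus) for Tkt and chrX:140456353-140456602 (plus) for Prps1. The Tkt stretch lies before the coding transcript Tkt-201 but within the gene limits given above, which begin with the non-coding transcript Tkt-203. Capitals mark CAGAC or its complement GTCTG, the core of the SMAD-binding element, SMADs being the transcription factors downstream of activin receptors.
Rpia: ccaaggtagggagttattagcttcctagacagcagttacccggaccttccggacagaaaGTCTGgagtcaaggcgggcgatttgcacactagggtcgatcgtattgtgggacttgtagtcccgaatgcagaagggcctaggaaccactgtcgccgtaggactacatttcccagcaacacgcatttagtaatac
Taldo1: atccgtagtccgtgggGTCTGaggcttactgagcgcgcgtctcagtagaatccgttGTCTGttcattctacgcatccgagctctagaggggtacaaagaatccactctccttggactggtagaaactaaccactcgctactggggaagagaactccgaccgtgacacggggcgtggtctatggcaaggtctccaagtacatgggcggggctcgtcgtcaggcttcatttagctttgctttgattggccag
Tkt: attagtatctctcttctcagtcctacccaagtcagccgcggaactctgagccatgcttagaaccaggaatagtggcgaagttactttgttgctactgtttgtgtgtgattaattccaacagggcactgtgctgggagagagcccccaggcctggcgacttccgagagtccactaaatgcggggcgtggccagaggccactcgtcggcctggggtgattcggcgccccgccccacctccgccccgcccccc
Prps1: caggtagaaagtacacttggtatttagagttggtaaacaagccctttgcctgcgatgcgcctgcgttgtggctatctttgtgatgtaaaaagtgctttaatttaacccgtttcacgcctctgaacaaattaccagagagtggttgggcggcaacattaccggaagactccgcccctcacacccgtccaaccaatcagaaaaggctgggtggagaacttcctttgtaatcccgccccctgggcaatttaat
On either strand, CAGAC was in the windows of Rpia and Taldo1 only among the 9 genes, and in 49.6% of the 32851 windows in the table. The antioxidant response core TGACNNNGC, bound by NRF2, a known activator of pentose phosphate genes, was in windows of G6pdx and Pgd and in 12.4% of all windows. The E-box CACGTG, a MYC and USF site, was in 0 windows of the 9 genes and in 7.15% of all. The hypoxia response core ACGTG, which also lies within the E-box, was in G6pdx and in 19.6% of all. These matches describe the letters of the windows and say nothing about binding.

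Other genes of the pathway and of ribose metabolism were 13 in a list drawn up by role. Of the 9 tested, 2 were higher and 1 lower, or 33.3%, near the 37.9% called among all genes, and the median log2 fold change was 0.042. Shpk, which encodes sedoheptulokinase and makes the sugar phosphate shared by Tkt and Taldo1, was higher at 2.02 and 1.95 CPM in NC and 4.48 and 5.18 in KO (log2 fold change 1.28, SE 0.30, adjusted p = 0.00114). H6pd, which encodes the dehydrogenase that runs the oxidative steps inside the endoplasmic reticulum, was higher at 47.2 and 48.2 CPM in NC and 65.4 and 61.3 in KO (0.41, SE 0.10, adjusted p = 0.00176). The lower gene was Prps1l3, described above. Prpsap1, a PRPP synthetase-associated protein gene (-0.091, adjusted p = 0.482), and Idnk, a gluconate kinase gene (0.24, adjusted p = 0.198), did not pass. Tktl1, Tktl2, Prps1l1 and G6pd2 had at most 2 counts in any library.

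The genes around the branch point at glucose 6-phosphate were mostly higher in KO. Of 8 tested, 6 were higher and 0 lower, or 75%. Among all genes tested 37.9% were called and 19.7% were higher. The median log2 fold change of the list was 0.41. Pfkp and Pfkm, phosphofructokinase subunit genes, had log2 fold changes of 1.08 (SE 0.10, adjusted p = 3.06e-09) and 0.53 (SE 0.10, adjusted p = 0.000167). Pgm1, which links glucose 6-phosphate to glycogen, had 0.46 (SE 0.09, adjusted p = 0.000294). Gpi1, the isomerase that competes with G6pdx for its substrate, was at 838 and 846 CPM in NC and 1114 and 1154 in KO (0.43, SE 0.09, adjusted p = 0.000622). The G6pdx value beside it was 0.13, which did not pass. Pfkl, the liver subunit gene (0.16, adjusted p = 0.161), did not pass either. Exons of Pfkp overlap Pitrm1 and those of Pgm1 overlap Itgb3bp on the opposite strand, so these totals are uncertain, and the pseudogene Gm1840 matches Gpi1 at 98.7% identity but had 98 counts in all.

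The list of genes that use PRPP or act further along purine and pyrimidine synthesis had 14 tested. Of these, 9 were lower in KO, 0 were higher and 5 did not pass. The calls made up 64.3%, against 37.9% among all genes tested, where 18.2% were lower. The median log2 fold change was -0.40, beside -0.36 for Prps1, -0.078 for Prps2, -0.55 for Rpia and -0.0068 for Rpe. Adsl, Pfas and Atic, which encode later steps of purine synthesis, had log2 fold changes of -0.69 (SE 0.10, adjusted p = 5.95e-06), -0.63 (SE 0.10, adjusted p = 2.80e-05) and -0.55 (SE 0.09, adjusted p = 5.37e-05). Ppat, which spends PRPP in the first step of that route, was named after its value was seen and had -0.601 (SE 0.11, adjusted p = 0.000114). Aprt, the adenine salvage enzyme, fell from 305 and 306 CPM in NC to 238 and 214 in KO (-0.43, SE 0.09, adjusted p = 0.000454). Paics, another purine enzyme, did not pass (-0.190, adjusted p = 0.102), and its exons overlap those of Ppat on the opposite strand. Of the other 4 that did not pass, named after their values were seen, Naprt (0.98, adjusted p = 0.104, at most 1.67 CPM) and Nampt (0.029, adjusted p = 0.846), which make NAD precursors, had positive log2 fold changes, and Uprt and Dhodh had -0.26 and -0.11.

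Other sources of NADPH were compared with the oxidative branch. Of 13 entries tested, 4 were higher and 4 lower, or 61.5%, against 37.9% called among all genes tested. The median log2 fold change was -0.11. The calls include both kinase genes, whose values were seen before they were named. Nadk was lower (-0.42, SE 0.09, adjusted p = 0.000748) and Nadk2 higher (0.49, SE 0.15, adjusted p = 0.0123). Mthfd1 and Mthfd2, folate enzymes of the cytosol and of mitochondria, were lower (-0.79, SE 0.11, adjusted p = 3.04e-06, and -0.72, SE 0.14, adjusted p = 0.000167). Aldh1l1 and Aldh1l2, folate enzymes also named after their values were seen, were higher (1.12, SE 0.29, adjusted p = 0.00309, and 0.83, SE 0.20, adjusted p = 0.00144). Aldh1l1 was at most at 6.59 CPM, and exons of Aldh1l2 overlap D10Wsu102e on the opposite strand. Me1, cytosolic malic enzyme, fell from 250.1 and 264 CPM in NC to 206 and 216 in KO (-0.29, SE 0.09, adjusted p = 0.0136), and its pseudogene Gm7049, 98.4% identical, had 248 counts in all. Idh2, the mitochondrial NADP-dependent isocitrate dehydrogenase, was at 142 and 150.1 CPM in NC and 151 and 139 in KO (-0.012, adjusted p = 0.934). The transhydrogenase gene Nnt has 2 overlapping entries. The one with more counts did not pass (log2 fold change -0.11, adjusted p = 0.476). The other, with 0 counts in NC and 67.9 and 22.3 in KO, passed as higher, so how reads divide between them is uncertain.

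**Figure D5:**
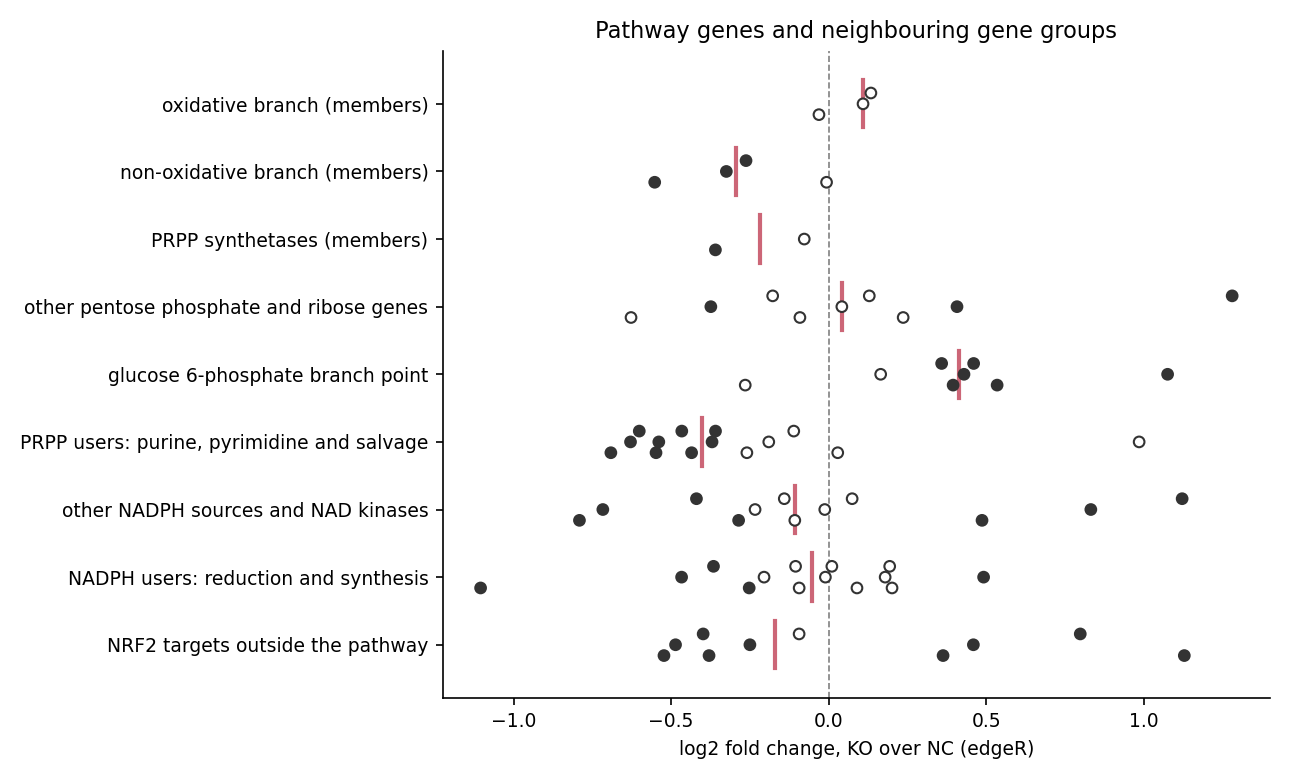
Log2 fold change of KO over NC for every tested gene in the pathway and in each neighbouring group (circles, filled where the adjusted p was under 0.05), with the group's median as a red bar. The Nnt entry with fewer counts, with 0 counts in NC, is not drawn. The branch-point genes centre at 0.41, the PRPP users at -0.40 and the oxidative genes at 0.11.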

How the data were processed

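Expected counts per gene were deposited by the authors in 1 file per library, not normalised and not pooled. The submitters' processing notes name STAR, RSEM and GRCm38 (mm10), without versions or a strand setting. RSEM divides reads between similar transcripts, so near-identical genes can exchange counts. The deposited TPM values are the authors' counts per effective length scaled to a fixed sum, per the file headers. Libraries were made with a directional kit, per the labels' protocols.

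The groups were taken from the sample titles. Counts were rounded (largest change of a total 0.000188%), filtered with filterByExpr, scaled by TMM and tested across all genes with edgeR 4.0.16 (quasi-likelihood, R 4.3.3) with group as the only term, and p-values were adjusted by Benjamini-Hochberg over 12510 genes. Limma 3.58.1 was used for log2 TPM and DESeq2 1.42.0 as an alternative. CPM are counts scaled by the TMM-adjusted library total. With 2 libraries a group the SD is poorly known and the test borrows spread across genes. Intervals are at 95% and do not separate PCR copies from molecules. Scripts were tested on simulated data. Coordinates and exon overlaps are from GENCODE M21, 1-based, and near-identical transcripts are blastn 2.17.0 matches of at least 90% over at least 200 bases.

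The pathway genes and lists were chosen with earlier results of these data known. Named beyond the pathway are, per list, the up to 3 genes past 0.05 with the lowest p and the 2 with the highest mean TPM, and the 3 genes closest in profile to the pathway gene with the lowest p. The labels number the libraries 1 and 2 in each group without saying that the numbers pair them. FPKM was not used.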

Additional observations from a re-analysis of the deposited data

How the results depend on the processing

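Leaving out 1 library at a time gave log2 fold changes of -0.629 to -0.471 for Rpia, -0.381 to -0.154 for Tkt, -0.483 to -0.183 for Taldo1, -0.421 to -0.302 for Prps1, -0.0255 to 0.245 for Pgls, -0.10 to 0.0328 for Pgd and -0.0852 to 0.0655 for Rpe. Without NC 1 or without KO 2, Rpia alone among the pathway genes passed 0.05, and fewer of all genes tested passed as well. In limma on log2(TPM + 1), log2(TPM + 0.1) and unfiltered log2(TPM + 1), 0, 0 and 0 pathway genes passed. In all, 1739, 1698 and 0 genes passed, of 11762, 11762 and 20640 tested (3876, 3853 and 4506 at an unadjusted p under 0.05). The count fit called 4741 of 12510. Of the calls on TPM, 67.2%, with the first setting, were higher in KO, against 51.9% in the count fit. The log2 changes with these settings, in that order, were -0.469, -0.502 and -0.469 for Rpia, -0.235, -0.237 and -0.235 for Tkt, -0.278, -0.279 and -0.278 for Taldo1, and -0.245, -0.258 and -0.245 for Prps1. Pgd and Rpe, near 0, turned positive with them (0.0202, 0.0204 and 0.0202 for Pgd, and 0.0197, 0.0212 and 0.0197 for Rpe). They also did with library totals only (0.0018 and 0.0252), as did Rpe with upper-quartile scaling (0.0189). Library totals gave -0.229 for Tkt, short of 0.05. DESeq2 called 2868 of 20579 genes and gave -0.368 for Prps1, short of 0.05. The causes were not tested. Per kilobase of a fixed length, the oxidative sum changed by 0.0827 on the log2 scale, against 0.136 in TPM, and the ratio of Tkt to Taldo1 by 0.0658, against 0.0427. Same-numbered libraries did not deviate together (correlation of deviations -0.012 over 12510 genes). With the replicate number as a block 5006 genes passed, and the same 4 pathway genes. RLE scaling, robust quasi-likelihood and no filter kept all 4 calls and their direction. Depth limits Rpia, Rpe, Prps1 and Prps2 most, at 191 to 375 counts a library.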

Other observations

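Of 14 NADPH-using or linked genes tested, 1 was higher and 4 lower, or 35.7%, near the 37.9% called among all genes tested, and the median log2 fold change was -0.052. Por, the electron donor of microsomal cytochromes P450, rose from 286 and 302 CPM in NC to 417 and 411 in KO (0.49, SE 0.09, adjusted p = 0.000112). Akr1b3, aldose reductase, fell from 261 and 241 to 200.2 and 189 CPM (-0.37, SE 0.09, adjusted p = 0.00232). Tyms, thymidylate synthase, whose product dihydrofolate is reduced with NADPH, had -1.10 (SE 0.13, adjusted p = 2.66e-07), and a stretch of its main transcript closely matches transcripts of many other genes, so its count is uncertain.

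Of 10 NRF2 targets, 4 were higher and 5 lower, or 90%, against 37.9% called among all genes tested. Hmox1, heme oxygenase, went from 36.6 and 36.9 CPM in NC to 72.6 and 88.0 in KO (1.13, SE 0.11, adjusted p = 4.49e-09), and Osgin1, an oxidative stress response gene, had 0.798 (SE 0.09, adjusted p = 1.72e-07). Gclm, the modifier subunit gene of the glutathione-synthesis ligase, had -0.52 (SE 0.10, adjusted p = 0.000164), and Fth1, ferritin heavy chain, had -0.49 (SE 0.10, adjusted p = 0.000299). Ftl1, ferritin light chain, did not pass (-0.094, adjusted p = 0.459). Exons of Gclm overlap Gm17494 and those of Ftl1 overlap Gm10252 on the opposite strand.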
